A study of Mus musculus with 8 samples.

Results

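The transcriptome described here is that of intestinal crypt epithelium from wild-type mice, taken from the 4 libraries labelled Ctrl of the 8 libraries in the study. The 4 are the wild-type littermates, titled Ctrl and given the genotype WT, of mice with a conditional knockout of Tdp-43, and all were 8 weeks old. The other 4 libraries, of the knockout, were not used, and no difference between genotypes is given. Crypts were shaken loose from the intestine in buffer with EDTA and strained, after which RNA was extracted with TRIzol and sequenced, each library coming from its own mouse by the labels. Each mouse is a replicate, so the spread given is that between these libraries, and the labels do not say whether the mice differed in sex, litter or day of collection. The tissue is labelled only as intestine, without a segment.

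Intestinal crypts are pits that renew the gut lining. In the colon they hold stem and dividing cells toward the base, goblet cells that secrete mucus, and absorptive cells that take up salt and water toward the top, while Paneth cells, which secrete defensins, belong to the crypts of the small intestine. Of 29037 genes in the table, 16330 had a mean of at least 10 normalized counts over the 4 libraries, 13254 of them protein-coding, and 1297 had no read in any. Reads on genes ran from 21517596 to 29992110 per library, and 1 read was worth 0.889 to 1.22 normalized counts. A count of 0 in a library allows up to 3 reads, or 2.67 to 3.65 normalized counts, which covers counting error only. Levels are compared between genes as normalized counts per kb of exon length, and values between libraries as normalized counts. Values after a gene name are for replicates 1 to 4, in that order, and means are given ± SD (n = 4).

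The libraries were led by mitochondrial transcripts and by those of secreted and surface proteins of the gut lining. The 10 highest genes held 16.3 ± 2.33% of the summed level per kb and the 100 highest held 36.1 ± 2.62%, while the 1000 highest held 65.7 ± 2.04%. The highest gene of all was mt-Co1, a subunit of cytochrome c oxidase, with a mean of 442689 normalized counts per kb. The mitochondrial chromosome as a whole held 11.3 ± 2.46% of the summed level, with 10.8, 8.94, 14.8 and 10.7% in replicates 1 to 4, so replicate 3 was highest and replicate 2 lowest. Of the genes of its 13 proteins, 12 had a mean of at least 100. Among those 12, 11 were highest in replicate 3 and 9 lowest in replicate 2. As a background for such counts, of 11341 genes with a mean of at least 100, 24.8, 24.4, 29.3 and 21.6% were highest in replicates 1, 2, 3 and 4, and 26.8, 23.9, 19.4 and 30.0% lowest. Genes of cytosolic ribosomal proteins, 84 in number, held 6.28 ± 0.53%, and 19 of them were among the 100 highest.

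The highest nuclear gene was Mptx1, a mucosal pentraxin at chromosome 1, 174330518 to 174332873 on the plus strand, with a mean of 186046 normalized counts per kb. Its values were 143859, 82739, 144575 and 223431 normalized counts, with the highest library 2.70-fold above the lowest. Replicate 4 was high and replicate 2 low, and replicates 1 and 3 lay close together. Lypd8, a surface protein that keeps flagellated bacteria away from colonic epithelium, had 234423, 201994, 151973 and 154681 normalized counts, a mean of 144679 per kb. Replicates 1 and 2 were above the other two. Next came the goblet cell proteins Clca1, which processes mucus (113499 per kb), the antimicrobial ribonuclease Ang4 (109686 per kb), the protease inhibitor Spink4 (60858 per kb) and the antibacterial Retnlb (56735 per kb). The keratins Krt8 and Krt19 stood at 90735 and 52721 per kb, and Pigr, which carries immunoglobulin A across the epithelium, at 44441 per kb. Gsdmc4, a gasdermin with close paralogs whose reads may be split among them, had 42695 per kb. The 25 highest protein-coding genes also held Guca2a, which encodes the peptide guanylin (34748 per kb), Lgals4, a galectin (39373 per kb), and Reg4, a lectin that marks secretory cells deep in the crypts of the mouse colon (33011 per kb). One transfer RNA, mt-Tp, would have entered at rank 18 with an exon length of 0.067 kb, at which a level per kb rests on few bases.

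**Figure D1:**
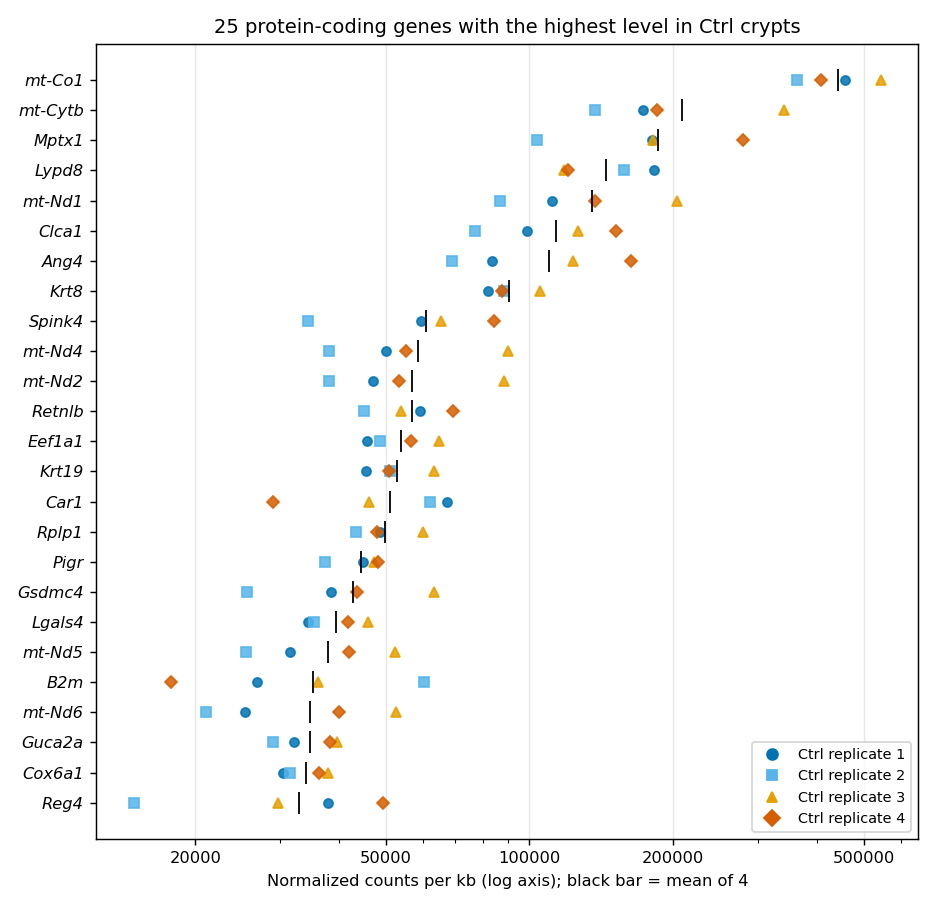
Level of the 25 highest protein-coding genes in each of the 4 Ctrl libraries, in normalized counts per kb on a log axis, with 1 point per library and a black bar at the mean. mt-Co1 leads with a mean of 442689 and Mptx1 is the highest nuclear gene at 186046, while B2m and Reg4 are spread the widest.

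B2m, the light chain shared by the MHC class I molecules, was high in level and wide in spread, with 23179, 51829, 31054 and 15306 normalized counts. Replicate 2 was highest and replicate 4 lowest, a range of 3.39-fold. Epithelial keratins and adhesion genes were steadier. Of the 17 genes listed for intestinal epithelium, all 17 had a mean of at least 100, and their median coefficient of variation (CV, the SD over the mean) was 7.96%. Krt8 had 160091, 172863, 205864 and 171818 normalized counts, Epcam, an epithelial adhesion molecule, 47042, 53077, 51222 and 44507, and Hnf4a, a factor of absorptive cells, 24377, 26836, 26037 and 24314. The 4 libraries lay close together for Epcam and Hnf4a, whereas Krt8 was highest in replicate 3. The epithelium list summed to 280328, 302529, 342555 and 297871 normalized counts per kb, or 3.24 ± 0.19% of the summed level.

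The 4 marker genes of the tissue, Car1, Aqp4, Muc2 and Lgr5, were all read in every library but at very different levels. By the table, in coordinates of GRCm38, Car1 is at chromosome 3, 14766216 to 14808368 on the minus strand, Muc2 at chromosome 7, 141690340 to 141754693 on the plus strand and Lgr5 at chromosome 10, 115450311 to 115587780 on the minus strand. Car1, the carbonic anhydrase of colonic absorptive cells, had 83709.7, 77218, 57729 and 36245 normalized counts, 51062 per kb. Replicates 1 and 2 were highest and replicate 4 lowest. Aqp4, a water channel, had 14841, 17546, 24860.2 and 24193 normalized counts and a mean of 3267 per kb, and its values in replicates 3 and 4 exceeded both others. Lgr5, the receptor that marks dividing stem cells at the crypt base, had 271, 260.5, 306 and 455 normalized counts, 31.5 per kb (rank 12033), and was highest in replicate 4. That level per kb rests on an exon length of 10.3 kb, pooled over 8 transcript models. Muc2, the main gel-forming mucin of goblet cells, had 1569.5, 1338, 901 and 1102 normalized counts, 172 per kb and rank 6502. That level cannot be set beside other genes. The GENCODE M21 models of Muc2, 8 in number, have a longest transcript that spans 10082 of the gene's 64354 bases, and the value covers the modelled exons alone. Goblet cell markers other than Muc2 were among the highest genes.

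The 22 goblet cell markers, of which 21 had a mean of at least 10, held 5.59 ± 1.36% of the summed level per kb, and 10 were among the 100 highest genes. They summed to 486084, 370684, 550522 and 717986 normalized counts per kb, with replicate 4 highest and replicate 2 lowest. Of the members with a mean of at least 100, 17 were highest in replicate 4 and 12 lowest in replicate 2. Fcgbp, a mucus protein, had 253134, 222416, 309124 and 392038 normalized counts and Tff3, a trefoil peptide, 14043, 12174, 15791 and 21929. Both were highest in replicate 4 and lowest in replicate 2. The factors of secretory fate varied less, with CVs of 15.6% and 14.3% against a list median of 20.7%. Atoh1 had 1730.1, 1982, 1796 and 2415 and Spdef, which drives goblet maturation, 4625, 3419.6, 4044 and 4723 normalized counts. St6galnac1, a sialyltransferase of mucins, was nearly at 0 (0, 0, 0 and 0.889).

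Paneth cell markers were low. Of 15 listed, 8 had a value in the table and 5 a mean of at least 10, and the list summed to 2534, 2234, 3610.1 and 3058 normalized counts per kb. The intelectin Itln1 made up 73.4% of it, at 2222, 1782, 3209 and 2369 normalized counts. Lyz1, the lysozyme of Paneth cells, had 6.08, 11.6, 36.9 and 25.8 normalized counts, and the defensins Defa24 and Defa30 had 0, 1.05, 0 and 0 and 0, 0, 0 and 0. The split of reads among close defensin paralogs is uncertain, so a value of 0 does not show absence. The matrix protease Mmp7, with 11.5% of its exon bases shared with another gene, had 101, 252, 225 and 97.8 and was high in replicates 2 and 3. The goblet list exceeded the Paneth list by 152 to 235-fold in the libraries, a mean log2 ratio of 7.52 ± 0.27. Without the highest member of each list the mean log2 ratio was 9.09, and without division by gene length 8.39.

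Enteroendocrine and tuft cells, both rare hormone-secreting or chemosensory cells, gave low but present signal. Enteroendocrine markers, with 27 of 29 at a mean of at least 10, summed to 5804, 5396, 4179 and 7969.7 per kb. Among hormones, Pyy, which curbs appetite, had 885, 902, 669 and 1593 normalized counts and Gcg, the proglucagon gene, 927, 967, 862 and 1239.9. Insl5, a hormone of the colon's L cells, had 779, 706, 684 and 2014, with replicate 4 far above the rest. Chga and Chgb, proteins of secretory granules, had 1228, 1147, 619.6 and 757 and 2695, 2429, 1188 and 1533, and were higher in replicates 1 and 2 than in 3 and 4. Tuft cell markers, 20 of 23 at a mean of at least 10, summed to 1167, 809, 1079 and 1066 per kb, with the channel Trpm5 at 502, 271, 414 and 398 and the factor Pou2f3 at 73.0, 48.3, 71.1 and 63.2 normalized counts. Of 12 tuft markers with a mean of at least 100, 10 were lowest in replicate 2.

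The 19 stem cell and Wnt feedback genes, 16 of them at a mean of at least 10, held 0.0555 ± 0.0077% of the summed level, and the list of absorptive markers was 55.4 to 64.6-fold above it, a mean log2 ratio of 5.91 ± 0.09. With the median of members in place of the sum it was 3.35, and without division by gene length 3.84. Sox9, a factor of progenitors, had 2194, 1983, 2010.3 and 2285 normalized counts, Axin2, a Wnt target, 1239, 1271, 1564 and 1585, and Ascl2, a factor of Lgr5-positive cells, 119, 126, 199.9 and 188. Ascl2 and Axin2 were higher in replicates 3 and 4, and Sox9 varied less. The list as a whole summed to 5748, 5381, 4764 and 4975 per kb, higher in replicates 1 and 2. So was its highest member Slc12a2, with 15623, 14575, 11870 and 13420 normalized counts, and Prom1, with 10226, 8189, 7047 and 6302. Of 14 members with a mean of at least 100, 4, 2, 1 and 7 were highest in replicates 1, 2, 3 and 4. Olfm4, which marks stem cells of the mouse small intestine, had 9.73, 8.40, 3.79 and 8.89 and Gkn3 0, 0, 0.947 and 0. All 26 proliferation genes had a mean of at least 100, and their sums were 18195, 18501, 14789.8 and 14135 per kb. Replicates 1 and 2 were higher than 3 and 4, with 12 genes highest in each of 1 and 2. Mki67, a protein of dividing cells, had 8189, 9923, 6121 and 6865 normalized counts and Mcm6, of the replication helicase, 3368, 2799.9, 2413 and 1786.

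**Figure D2:**
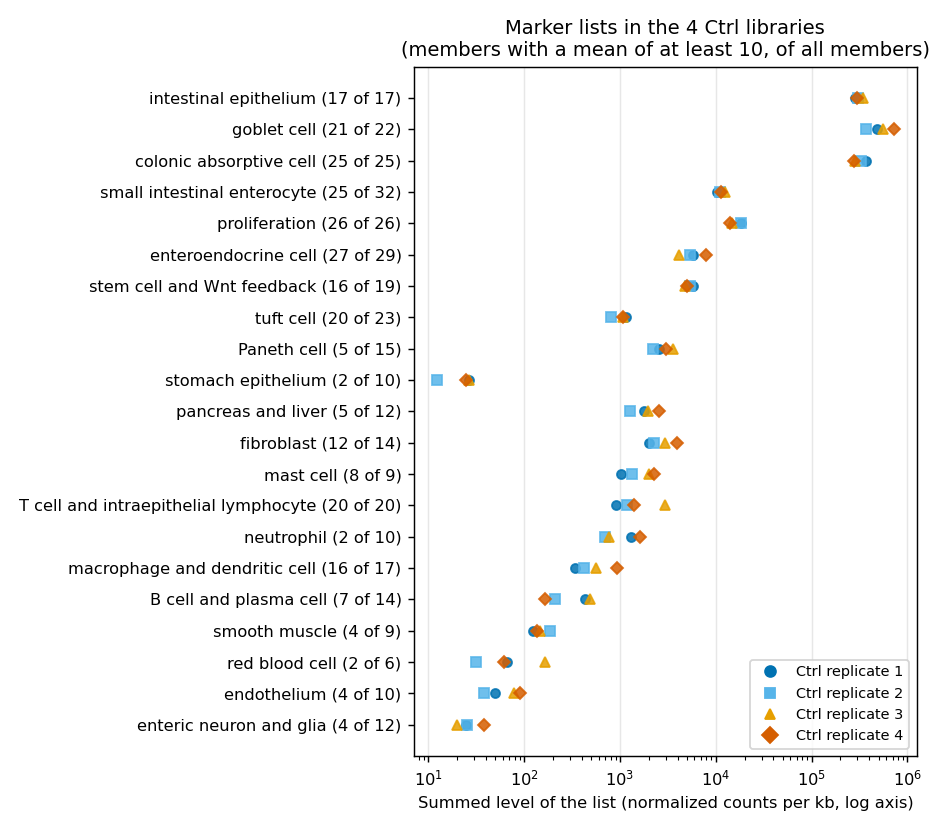
Summed level of each marker list in each Ctrl library, in normalized counts per kb on a log axis, with 1 point per library and the number of members with a mean of at least 10 in brackets. Epithelium, goblet and colonic absorptive lists lie highest, small intestinal and proliferation lists well below, and enteric neuron and glia, stomach and endothelium lists lowest.

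The list of colonic absorptive markers stood far above that of small intestinal enterocytes, both chosen with earlier results of these data known. Colonic absorptive markers, 25 of 25 at a mean of at least 10, held 3.35 ± 0.64% of the summed level, and markers of small intestinal enterocytes, 25 of 32, held 0.119 ± 0.0050%. The ratio of the lists was 22.6 to 35.7 in the libraries, a mean log2 ratio of 4.79 ± 0.30. It was 3.95 without division by gene length and 5.94 with the median of members in place of the sum. Lypd8 made up 46.0% of the colonic absorptive list, and without the highest member of each list the mean log2 ratio was 5.12. A two-sided exact sign-flip test over 4 libraries cannot go below p = 0.125, so these ratios are given as a description with no p. Among colonic genes were the chloride and bicarbonate exchanger Slc26a3 (9848, 9781, 8683 and 17123 normalized counts), highest in replicate 4, and the water channel Aqp8 (7535, 8146, 3769.6 and 8068), lowest in replicate 3. Sis, sucrase-isomaltase of the brush border, had 19.5, 14.7, 33.2 and 24.0 and Lct, lactase, 4.87, 2.10, 6.63 and 6.23. Apoa4 was at 0, 1.05, 0 and 0, with 69.8% of its exon bases shared with another gene. The fatty acid binding protein Fabp2 made up 56.8% of the small intestinal list, with 5299.8, 5603, 7418 and 6423. Mgam, an enzyme of starch digestion, had 16349.7, 16041, 14054 and 12749, and the glucose transporter Slc5a1 5969, 5597, 5313 and 5162.

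Factors that pattern the gut along its length were read in most cases, with 12 of 16 region factors and 27 of 39 Hox genes at a mean of at least 10. Cdx1 and Cdx2, intestinal master factors, had 11630.2, 11659, 11021 and 9312 and 8101, 7408, 8431 and 8171 normalized counts. Gata4, which is used in the small intestine, had 11.0, 10.5, 11.4 and 12.5, and Pdx1, of the duodenum, 11.0, 17.9, 24.6 and 24.9.

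Hoxb13, the hindgut end of its cluster, had 3055, 4269, 4713 and 5760.3 normalized counts, and was the highest Hox gene at 2017 per kb. Replicate 1 was lowest and replicate 4 highest. Hoxa13 had 628, 968, 1272 and 1451 and Hoxd13 595, 1052, 981 and 1463, both lowest in replicate 1 and highest in replicate 4. Hoxb6 went the other way, with 2758, 1947, 1183 and 647, and Hoxb4, Hoxb5, Hoxb7 and Hoxb8 were likewise highest in replicate 1 and lowest in replicate 4. Hoxa7 hardly varied, with 1385, 1393, 1371 and 1365. Its CV of 0.905% lay below that of counting error alone, 2.73%, and 20.4% of its exon bases are shared with the antisense gene Hoxaas3. The sum over the Hox list was steady, 6859, 7283, 6906 and 7051 per kb. No Hoxc gene with a value exceeded 5.68 normalized counts in a library. Whether the libraries hold different stretches of gut was not tested, and no label gives the stretch.

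**Figure D3:**
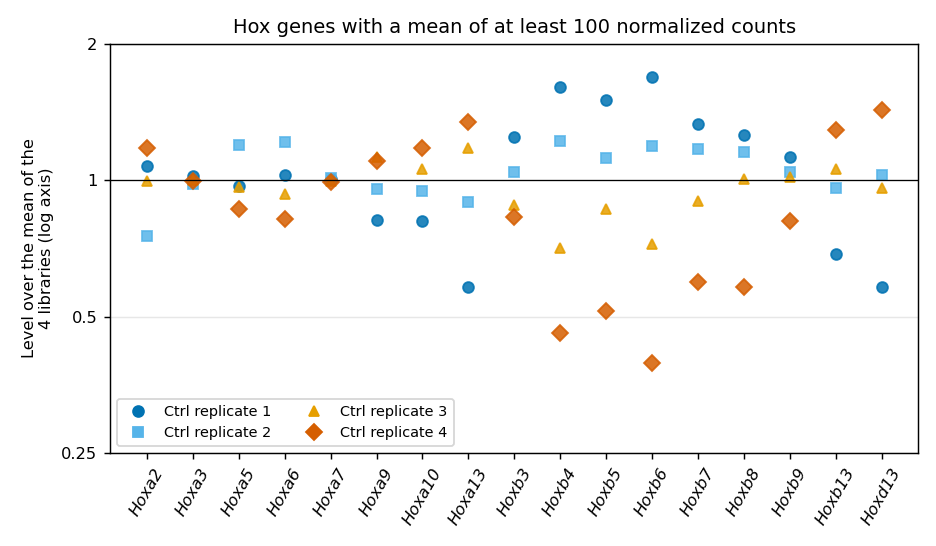
Hox genes with a mean of at least 100 normalized counts, shown per library as the level over the mean of the 4 libraries on a log axis. Hoxb4 to Hoxb8 are highest in replicate 1 and lowest in replicate 4, and Hoxa13, Hoxb13 and Hoxd13 the reverse.

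In bulk RNA, fewer cells of a type and less RNA per cell cannot be told apart. T cell and intraepithelial lymphocyte markers, 20 of 20 at a mean of at least 10, summed to 912, 1194, 2973 and 1396 per kb, and all 8 members with a mean of at least 100 were highest in replicate 3. Gzma, a granzyme of cytotoxic cells, had 117, 258, 744 and 394 normalized counts and Cd3e, of the T cell receptor complex, 43.8, 43.1, 120.3 and 37.4. Macrophage and dendritic cell markers summed to 337, 425, 562 and 942 per kb, highest in replicate 4. Of the mean sum, Lyz2 was 25.0%, and without it the sums were 297, 393, 484 and 527. C1qa, a complement protein of macrophages, had 73.0, 45.2, 55.9 and 50.7, highest in replicate 1. Lyz2, a lysozyme of myeloid cells, had 53.5, 43.1, 102 and 546, with replicate 4 well above the others. The neutrophil list summed to 1315, 692, 775 and 1613 per kb, of which Ly6g was 95.9%, while the defining neutrophil proteins S100a8 and S100a9 had 0, 2.10, 0.947 and 34.7 and 1.22, 1.05, 0 and 36.5.

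Fibroblast markers, 12 of 14, summed to 2034, 2269, 2938 and 3956 per kb, of which Gsn, an actin-severing protein that epithelium also makes, was 79.2%. Of 10 markers with a mean of at least 100, 8 were highest in replicate 4. The collagens Col1a1 and Col1a2 had 73.0, 134, 129 and 729 and 111, 214, 156 and 1019 normalized counts, and Pdgfra, of stromal cells, 1.22, 6.30, 4.74 and 59.6. Replicate 4 was high for all 3. B cell and plasma cell markers summed to 431, 209, 491 and 166 per kb, of which Igkc was 55.2%. Mast cell markers summed to 1038, 1323, 2017 and 2247, with Mcpt1 at 65.3%, and endothelial markers to 37.8 to 90.5, with Lyve1 at 53.4%. Smooth muscle markers summed to 123, 185, 148 and 136, of which Mylk was 75.8%. Without Mylk the smooth muscle sums were 26.0, 30.9, 36.5 and 49.9, highest in replicate 4. Markers of enteric neurons and glia summed to 24.7, 25.5, 19.9 and 38.5 per kb. Red blood cell markers were at 66.1, 31.4, 166 and 61.9 and stomach markers at 26.6, 12.4, 26.9 and 24.5, against 486084, 370684, 550522 and 717986 for goblet cells. The pancreas and liver list reached 1805, 1266, 1951 and 2547 per kb, of which the protease Cela1 was 81.4%. Xist, which silences an X chromosome in female cells, had 32502, 29091, 24427 and 26259.5 normalized counts in replicates 1 to 4. Sex is not in the labels, and the other sex-linked genes were not analysed here. The part of these cell types in the spread described next was not tested.

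The 4 libraries were alike in most genes and differed widely in some. Of 11341 genes with a mean of at least 100, the median CV was 10.1%, with the 5th to 95th percentile at 3.12 to 38.0%. Counting error alone gave a median CV of 3.30%, and with it subtracted the median was 9.31%. In 886 genes (7.81%) the highest library was at least 2-fold above the lowest, and in 78 at least 10-fold. Spearman correlations between pairs of libraries across 16330 genes ran from 0.976 to 0.987; genes are not independent replicates. By pair, 213 genes differed at least 2-fold between replicates 1 and 2, 223 between 3 and 4, 372 between 1 and 3, 329 between 2 and 3, 475 between 2 and 4 and 513 between 1 and 4. The closest libraries were thus 1 and 2, and 3 and 4. As a check for a library deposited more than once, counts were compared pair by pair, and every pair differed by more than counting noise, with a chi-square per degree of freedom of 18.7 to 48.2.

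**Figure D4:**
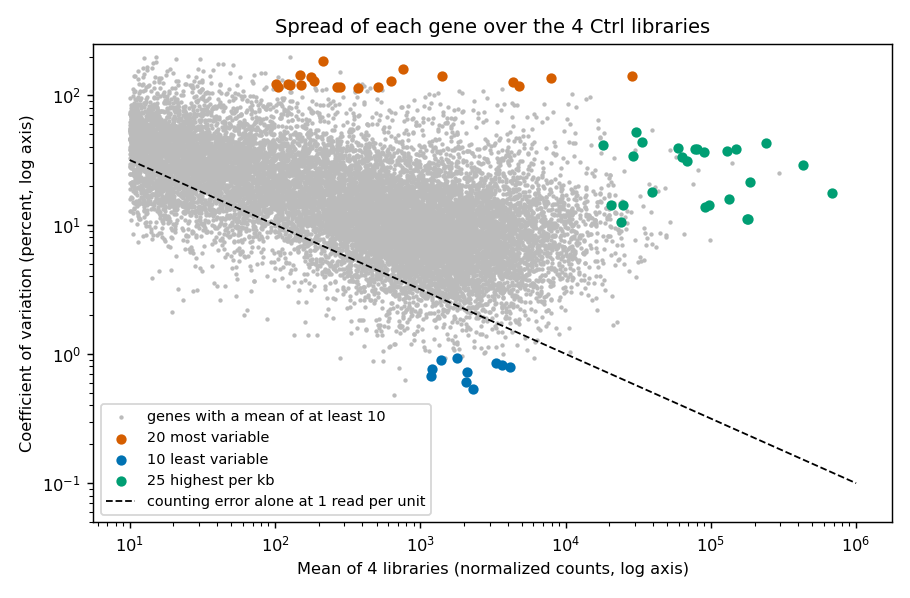
Coefficient of variation over the 4 Ctrl libraries against the mean, both on log axes, for genes with a mean of at least 10, with the most and least variable named genes and the 25 highest marked. The dashed line is counting error where 1 read is 1 normalized count, and most genes above 1000 lie over it.

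Interferon-stimulated genes, which cells turn on in response to interferon, differed widely between the libraries. All 24 listed had a mean of at least 100, with a median CV of 66.9%, against 10.1% over all genes with such a mean. They summed to 55339.8, 43155, 17712 and 12695 per kb, with 19 highest in replicate 1, 5 in replicate 2 and 23 lowest in replicate 4. Isg15, a ubiquitin-like protein, had 9267, 6292, 1586 and 1276 normalized counts, Ifit1, which binds viral RNA, 8203, 4094, 1478 and 1319, and Irf7, the factor that amplifies the response, 18441, 13186, 5366 and 4222. Replicates 1 and 2 were above 3 and 4 for all 3. Iigp1, an interferon-gamma-induced GTPase, had 594, 9297, 3905 and 797, and Ido1, a tryptophan-degrading enzyme, 48.7, 2563, 309.8 and 113. Those were highest in replicate 2, as was the chemokine Cxcl9 (20.7, 545, 121 and 25.8).

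The interferon-stimulated response element, to which interferon-activated factors bind, has as its core GAAA, any 2 bases and GAAA again, searched on both strands. It was present in 12 of 18 promoters (66.7%) of 17 of these genes and in 3.44% of all 32851 promoters, in windows of 250 bases before to 50 after the start. The RefSeq (GRCm38.p6) promoters of Isg15 and Ifit1 are shown because they hold it; capitals mark the matches, which overlap in Isg15. Isg15 is at chr4:156200769-156201068 on the minus strand with 3 matches, starting at positions -78, -72 and -66 from the start, and Ifit1 at chr19:34640639-34640938 on the plus strand with 2, at -104 and -85.
Isg15: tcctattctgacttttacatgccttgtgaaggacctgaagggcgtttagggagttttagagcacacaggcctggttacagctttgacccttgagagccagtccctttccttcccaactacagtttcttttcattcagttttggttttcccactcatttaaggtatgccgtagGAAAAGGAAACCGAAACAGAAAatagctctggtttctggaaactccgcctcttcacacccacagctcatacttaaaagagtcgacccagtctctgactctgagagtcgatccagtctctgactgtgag
Ifit1: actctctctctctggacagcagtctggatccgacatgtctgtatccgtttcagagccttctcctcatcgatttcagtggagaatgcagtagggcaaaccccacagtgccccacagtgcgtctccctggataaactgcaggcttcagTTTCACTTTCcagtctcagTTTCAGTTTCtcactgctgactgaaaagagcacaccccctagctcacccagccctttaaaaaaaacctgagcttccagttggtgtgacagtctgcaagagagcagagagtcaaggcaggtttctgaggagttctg

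MHC class II genes, which present peptides to helper T cells, were lowest in replicate 1 in 7 of 7. They summed to 846, 15426, 13784 and 4402 per kb. Cd74, the invariant chain, had 1040.3, 19294, 16841 and 4457 normalized counts and H2-Aa 20.7, 1979, 1795 and 807. Replicates 2 and 3 were highest, replicate 4 lay between them and replicate 1, and the order differed from that of the interferon genes. Antimicrobial lectins had another order. Reg3b had 88081, 17711, 2785 and 5855 and Reg3g 23904, 5157, 946 and 1547, both highest in replicate 1 and lowest in replicate 3, although their split from close paralogs is uncertain. Sprr2a1, a small proline-rich protein, has a near-identical copy, Sprr2a2, and the split between them is uncertain. Their sum was 3734, 3813, 46551 and 45130.1, low in replicates 1 and 2 and high in 3 and 4. Trim66 had 3.65, 374, 376 and 3.56, high in replicates 2 and 3, and was named after its values were seen, as were Sprr2a1 and Iigp1.

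Genes of the circadian clock, an oscillator that cells run over the day, also differed between the libraries. Nr1d1, a clock repressor that is transcribed in daily waves, had 97.3, 171, 2169 and 2121 normalized counts and Dbp, a clock output factor, 35.3, 22.1, 225 and 237. Both were high in replicates 3 and 4 and low in 1 and 2, and 8.55% and 18% of their exon bases are shared with another gene. Arntl, the activator that turns on the E-box genes, had 1775, 1749, 694 and 815 and Cry1 1377, 1299, 318 and 258, high in replicates 1 and 2. Per2 had 1033, 676, 430.1 and 357 and Tef 276, 168, 1363 and 1154. The core gene Clock was steady at 2818, 3254, 2886 and 3168, as was Cry2 at 481, 418, 439.6 and 471. Over the 13 listed genes with a mean of at least 100 the median CV was 46.4%. The hours of collection are not in the sources used here, so the part of the day in these values was not tested.

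Clock factors bind E-boxes, with the letters CACGTG, and the ROR element TAGGTCA. The E-box, searched on both strands, was in 6 of 20 promoters (30%) of 15 clock genes and in 7.15% of all promoters. TAGGTCA was in 2 of 20 (10%) and in 2.61% of all promoters. The promoter windows of Nr1d1 and Dbp held neither of these motifs. The promoter of Ciart, an inhibitor of the clock with 25.6, 16.8, 48.3 and 41.8 normalized counts, has 3 E-boxes at -116, -58 and -44 (chr3:95882179-95882478 on the minus strand). Of the 2 Arntl promoters in the table, 1 has the ROR core, at 30 bases after its start, and the other has none. The promoter with the match (chr7:113207261-113207560 on the plus strand) is shown beside that of Ciart, with the matches in capitals.
Ciart: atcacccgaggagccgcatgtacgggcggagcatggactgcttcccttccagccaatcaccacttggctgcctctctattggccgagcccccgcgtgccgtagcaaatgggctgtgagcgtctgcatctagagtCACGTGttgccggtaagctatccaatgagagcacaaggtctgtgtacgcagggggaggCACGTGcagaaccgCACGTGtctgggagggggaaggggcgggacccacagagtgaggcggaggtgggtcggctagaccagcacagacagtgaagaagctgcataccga
Arntl: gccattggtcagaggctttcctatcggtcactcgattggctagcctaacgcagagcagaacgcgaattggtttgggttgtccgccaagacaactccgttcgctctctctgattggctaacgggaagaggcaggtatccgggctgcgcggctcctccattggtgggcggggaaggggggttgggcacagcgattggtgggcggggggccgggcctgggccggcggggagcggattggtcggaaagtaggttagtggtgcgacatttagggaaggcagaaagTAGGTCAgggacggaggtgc

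**Figure D5:**
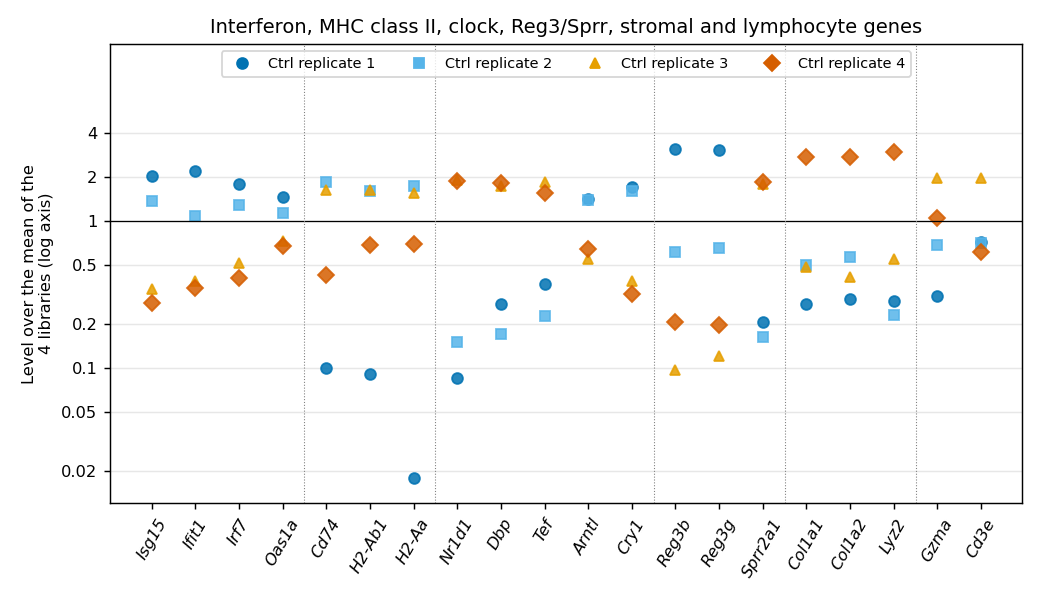
Level of genes of 6 groups in each Ctrl library over the mean of the 4 libraries, on a log axis; dotted lines part interferon, MHC class II, clock, Reg3 and Sprr, stromal and myeloid, and lymphocyte genes. Isg15 and Ifit1 are highest in replicate 1, H2-Aa lowest in replicate 1, Nr1d1 high in replicates 3 and 4, and Col1a1 in replicate 4.

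The 20 most variable protein-coding genes were taken at a mean of at least 100, leaving out some kinds of symbols such as those ending in Rik. Among these 20, Tgfb3, a growth factor of stroma and epithelium, had 15.8, 13.7, 16.1 and 816 normalized counts, all but a trace of it in replicate 4. It shares 12.4% of its exon bases with other genes. Lpo, lactoperoxidase, had 2408, 1993, 1402 and 13240.1 and Saa3, an acute-phase protein, 324, 155, 197 and 1824, both high in replicate 4. Vamp8, a vesicle fusion protein, had 35.3, 424, 71.1 and 75.6, and Afm, an albumin relative, 288, 35.7, 38.8 and 43.6, which were high in replicates 2 and 1. Gapdh, of glycolysis, had 538, 374, 4374 and 341, high in replicate 3 only. Rpl34, a ribosomal protein, had 231, 176, 11844 and 5226. Summed with its pseudogene Rpl34-ps1, it had 10358, 10368, 12958 and 11506, a CV of 10.9%, and the split of reads between the gene and its copy is uncertain. Gapdh also has many copies, and its level is uncertain.

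The steadiest genes with a mean of at least 1000 included Ube2q1, of ubiquitin transfer, with 2309, 2327, 2316 and 2338 normalized counts (CV 0.535%), Ppp3r1, a calcineurin subunit, with 2062, 2079, 2050.1 and 2057, and the transcription factor Sp1 with 3353, 3382, 3327 and 3319. Their spread lay below counting error alone, which for Ube2q1 is a CV of 2.10%. Immediate early genes, which tissue handling can induce, had a median CV of 12.6%, above the 10.1% over all genes with a mean of at least 100. Fos had 9392, 9731, 10289 and 11584 and Egr1 4904, 4944, 6341 and 6072, and the list's sum had a CV of 7.46%. The list's widest member with a mean of at least 100 was Hspa1b, a heat shock protein, with 1375, 1164, 393 and 232, high in replicates 1 and 2. Cholesterol synthesis genes, 22 in number, had a median CV of 13.3%, with 18 highest in replicate 3 and 14 lowest in replicate 2, and Hmgcs1, an early enzyme of the pathway, had 10275, 9480.4, 12553 and 11323.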

How the data were processed

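For every gene and library the authors deposited a normalized signal value. Each is a whole read count over a factor common to that library, as the deposited values themselves show: at a tolerance of 0.0001 reads, 100% of the Ctrl values were whole multiples of their library's smallest step. The same deposited table also held the authors' log2 fold changes and p-values between genotypes, from a test it does not name, and neither was used. HISAT2 2.0.5, featureCounts 1.5.0-p3 and CASAVA appear in the submitters' processing notes. No source used here gives the genome build or says if counting was stranded, so reads of overlapping or antisense genes cannot be told apart. GENCODE M21 (GRCm38) held 98.9% of the gene identifiers, 99.6% of those at the same coordinates and 99.4% with a length equal to the union of exons.

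Groups follow the titles of the samples. Each gene's mean over the 4 Ctrl libraries was divided by its exon length in kb. The CV is the SD over the mean, and its counting part comes from the recovered reads. A filter on the mean of 10 or 100 normalized counts was used as stated. No contrast between genotypes was made, so no count test was run. The members and the 33 gene lists were chosen with earlier results of these data known. The text names the 25 highest protein-coding genes per kb, the defining and 3 highest members of each list, the 20 most variable and 10 least variable protein-coding genes, and Aqp4, Car1, Muc2 and Lgr5. The most variable were taken at a mean of at least 100 and the least variable at a mean of at least 1000. From the most variable, symbols that start with Gm and a digit or end in Rik were left out. Immunoglobulin and T cell receptor segments were left out as well, by symbol. Other genes it names were chosen after their values were seen. A few genes within the rule are not reported here. Promoters of 250 bases before to 50 after the start came from RefSeq. The procedures were tested on simulated data. Alternatives covered scaling, filters, division by length, list summaries and each library left out. Python 3.11.15, numpy 2.4.6, pandas 2.3.3, scipy 1.17.1 and matplotlib 3.10.9 were used.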

Additional observations from a re-analysis of the deposited data

Results flagged for a closer look

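In the 4 Ctrl libraries, 1 value stood apart from the other 3 by more of the range than Dixon's 95% limit allows for 25 of 226 values tried. Chance alone passes that limit for about 1 in 20 groups, and over the 11341 genes with a mean of at least 100 it was passed by 481 (4.24%). Of the 25, 12 are among the 20 genes named for being the most variable, so their number is no test against chance, and 13 are among the other 206 values. In replicate 1 the highest values that stood apart were Afm at 288 normalized counts. In replicate 2 the highest values that stood apart were Ido1 at 2563, Vamp8 at 424, Apoa4 at 1.05 and Cma1 at 245 normalized counts. In replicate 3 the highest values that stood apart were Gapdh at 4374, Cd3e at 120.3 and Cd8a at 261 normalized counts. In replicate 3 the lowest values that stood apart were Aqp8 at 3769.6 normalized counts. In replicate 4 the highest values that stood apart were Tgfb3 at 816, Lyz2 at 546, Saa3 at 1824, Chil1 at 349, Arg1 at 353, Lpo at 13240.1, Col1a1 at 729, Col1a2 at 1019, Insl5 at 2014, Slc26a3 at 17123, S100a8 at 34.7, S100a9 at 36.5, Csf3r at 34.7, Pdgfra at 59.6 and Uchl1 at 18.7 normalized counts. The summed level of the stomach list was lowest in replicate 2, at 12.4 per kb. Replicate 4 held the most such values, which include collagen, myeloid and neutrophil genes. It also stood apart most often among the 481 genes, with 94, 119, 119 and 149 in replicates 1, 2, 3 and 4. Whether stromal or immune cells in replicate 4 account for its values was not tested. Apoa4 rests on 1 read. Gapdh and Tgfb3 are uncertain since Gapdh has copies and Tgfb3 overlaps other genes.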

How the results depend on the processing

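Each library's scaling, filter and list summary was varied, and each library was left out in turn. The share of the summed level in the 100 highest genes was 22.4% without division by gene length and 29.5% without the mitochondrial chromosome, against 36.1%. The median CV was 14.1% with a minimum mean of 10, against 10.1%. The median correlation between libraries was 0.975 as Pearson on log2(value + 1) and 0.957 with no filter, against a Spearman value of 0.982. All 3 log2 ratios between marker lists stayed above 0 under the 9 alternatives run. Those that rescale a whole library multiply both lists by the same factor, so they could not change a ratio. The ratios moved with the summary of a list and with division by length. Colonic over small intestinal, 4.79 as reported, was 3.95 without division by length and 5.94 with the median of members. Goblet over Paneth, 7.52, was 9.09 without the highest members and 8.39 without division by length. Absorptive over stem cell, 5.91, was 3.35 with the median of members and 3.84 without division by length. With each library left out they ran from 4.67 to 4.89, 7.40 to 7.61 and 5.87 to 5.94. Of the 193 named genes, 40 moved by over 1.5 times in mean level with 1 library left out, 18 of them without replicate 4. With the median of the libraries 29 did, and with other scalings 0. Scaling to library totals changed a library by a factor of 0.957 to 1.03, and median-of-ratios scaling by 0.998 to 1.002. Neither could move a mean so far. Tgfb3 went from 63.6 to 4.49 per kb without replicate 4, Reg3b from 25051 to 7691 without replicate 1 and Ido1 from 416 to 86.1 without replicate 2. No paired analysis was possible because no contrast between groups was made. Depth limits low genes: 3 reads in a library are 2.67 to 3.65 normalized counts.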
